A study of Mus musculus with 6 samples.

Results

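Adipose progenitor and fibroblast genes were followed in adult offspring of mice, as log2 values on 6 arrays. Adipose tissue was sampled at an age of 32 weeks. For 3 samples the mother's diet was restricted in chromium, a trace metal taken in with food, and for the other 3 the mother received control diet. The tissue of both groups is given only as adipose, with no strain, sex or fat depot in the sources used here. The 35 members are named by symbol as markers of adipose stromal progenitors and fibroblasts, and 34 of them had a probe set annotated with that symbol alone, among 22180 genes in all. Ly6a had none and was not analysed here. Of the 34 members 33 had 1 such probe set, and Svep1 had 2, of which the brighter stands for the gene. Nothing in the labels ties the numbered samples to separate animals or litters, so each p-value rests on the spread between samples that may be technical.

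White fat keeps a pool of fibroblast-like cells in its connective tissue that can become adipocytes. Cells carrying the surface peptidase Dpp4 and the secreted protein Pi16 lie in the interstitial layer around the lobules and are held to be the less committed state. Cells carrying the adhesion molecule Icam1 are the committed preadipocytes, and cells carrying coagulation factor III (F3, also known as CD142) form a population reported to restrain adipocyte formation in their neighbours. Pdgfra, Cd34 and Ly6a mark all of these cells, which also make much of the matrix of the tissue. The members are not exclusive to progenitors: endothelium also makes Icam1 and Cd34, and most cell types make Itgb1.

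Nearly all measured members were bright on the arrays. Of the 34, 32 lay above the array median of 5.44 to 5.57 (log2) on each of the 6 arrays; Mfap4 lay below it on 3 arrays and Opcml on 5. None of the 34 lay in the 64 probe sets in which some deposited values were written with more digits than the rest of the table. Arrays of the same group differed in transcripts of other tissues. Liver transcripts (7 genes) had a mean log2 level of 11.33 in chromium restriction replicate 1, of 10.90 in replicate 3 and of 6.55 to 6.94 on the other 4 arrays. Intestinal and lymphoid markers were highest in chromium restriction replicate 2, at mean levels of 6.42 and 7.61 against at most 5.45 and 6.26 elsewhere. Brown fat markers were raised in control replicate 1, with a mean level of 9.48, and in control replicate 3, with 6.99, against 5.48 to 5.86 elsewhere. Markers of mural cells and smooth muscle (7 genes) had mean levels of 9.28, 8.39 and 8.10 in control replicates 1, 2 and 3. In chromium restriction replicates 1, 2 and 3 those levels were 8.34, 9.01 and 9.10. In bulk tissue, fewer cells of a type and less RNA per cell cannot be told apart.

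The bases just before the transcription start are shown for 5 members, because the results turn on them: Dpp4 and Igfbp6, which were lowest in a control array, and Pi16, Icam1 and Medag, which were lowest in a chromium restriction array. Each stretch is 160 bases long, is written 5′ to 3′ on the strand of the gene, and was taken from RefSeq (build GRCm38.p6). Capitals mark the motifs searched for. The positions are chr2:62412232-62412391 on the minus strand for Dpp4, chr15:102144026-102144185 for Igfbp6, chr17:29318722-29318881 for Pi16, chr9:21015780-21015939 for Icam1 and chr5:149411589-149411748 for the first of 2 starts of Medag, the last 4 on the plus strand.
Dpp4: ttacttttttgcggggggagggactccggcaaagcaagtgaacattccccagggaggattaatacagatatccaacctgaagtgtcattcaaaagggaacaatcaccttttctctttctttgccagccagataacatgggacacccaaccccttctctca
Igfbp6: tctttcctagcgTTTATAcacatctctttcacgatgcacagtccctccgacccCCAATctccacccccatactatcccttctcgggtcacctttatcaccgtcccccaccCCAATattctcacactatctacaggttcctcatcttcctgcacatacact
Pi16: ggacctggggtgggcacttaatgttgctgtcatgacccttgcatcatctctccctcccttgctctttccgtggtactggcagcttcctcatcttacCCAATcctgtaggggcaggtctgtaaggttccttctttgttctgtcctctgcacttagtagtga
Icam1: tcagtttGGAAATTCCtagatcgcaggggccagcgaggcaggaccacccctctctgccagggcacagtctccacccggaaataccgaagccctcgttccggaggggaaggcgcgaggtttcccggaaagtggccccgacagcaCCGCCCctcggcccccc
Medag: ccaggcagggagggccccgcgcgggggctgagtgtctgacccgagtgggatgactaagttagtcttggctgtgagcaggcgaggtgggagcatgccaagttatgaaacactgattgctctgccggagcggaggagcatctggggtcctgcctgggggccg

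The motifs searched were the TATA box TATAAA, the CCAAT box CCAAT, the GC box GGGCGG, the AP-1 motif TGANTCA and the NF-kB motif GGAAATTCC, on both strands; none of these motifs holds another. Windows from 250 bases before to 50 bases after the start were listed for 28 members, 32 windows in all; Ly6a, Anxa3, Fap, Mfap4, Clec3b, Penk and Smoc2 were not matched. Icam1 was the 1 member with GGAAATTCC, 153 bases before its start, and 0.317% of all 32851 windows hold that motif. Igfbp6 had CCAAT at 107 and 50 bases before its start, and Pi16 had it at 64 bases. The CCAAT box lay in 8 of the 32 member windows and in 37.4% of all windows. GGGCGG lay in 18 of 32 against 35.7% of all windows, TATAAA in 9 of 32 against 13.6% and TGANTCA in 1 of 32 (F3) against 7.81%. These are matches of letters in a window, not sites of binding.

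No member passed the test for a difference with maternal diet. In limma 0 of 34 members passed an adjusted p of 0.05 over all genes, where 0.194% of all genes passed (43 of 22180), and the smallest adjusted p of a member was 0.817. At an unadjusted p under 0.05 there were 2 members, Opcml and Fbln1, both lower in the chromium restriction group, where 5.95% of all genes had such a p and 3.53% were lower with one. The mean was higher in the chromium restriction group for 15 members and lower for 19, where 43.2% of all genes were higher. The median log2 difference, chromium restriction minus control, was -0.012 over the members and -0.018 over all genes, and the members ran from -0.61 for Penk to 0.55 for Cilp. The members varied more between arrays of a group than the typical gene: the median pooled SD within groups was 0.32 for members and 0.15 for all genes. The 2 medians were not matched for brightness, as dim genes were kept among all genes while nearly all members were bright. For 34 of 34 members the wider of the ranges within a group exceeded the difference between the groups. The share of all genes for which this held is not given here, so the count does not set the members apart. Leaving out chromium restriction replicate 2, the array with intestinal and lymphoid transcripts, left 0 members past the adjusted p and raised the members at an unadjusted p under 0.05 to 13, while 439 genes passed over all genes; the smallest adjusted p of a member was then 0.0977, for Abca8a. The members at an unadjusted p under 0.05 were 0 without chromium restriction replicate 1 or control replicate 2 and 1 without control replicate 3. The share of 5.95% holds for 6 arrays only. No such share is given here for the settings without an array, so the 13 is not a result about the members in particular.

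**Figure D1:**
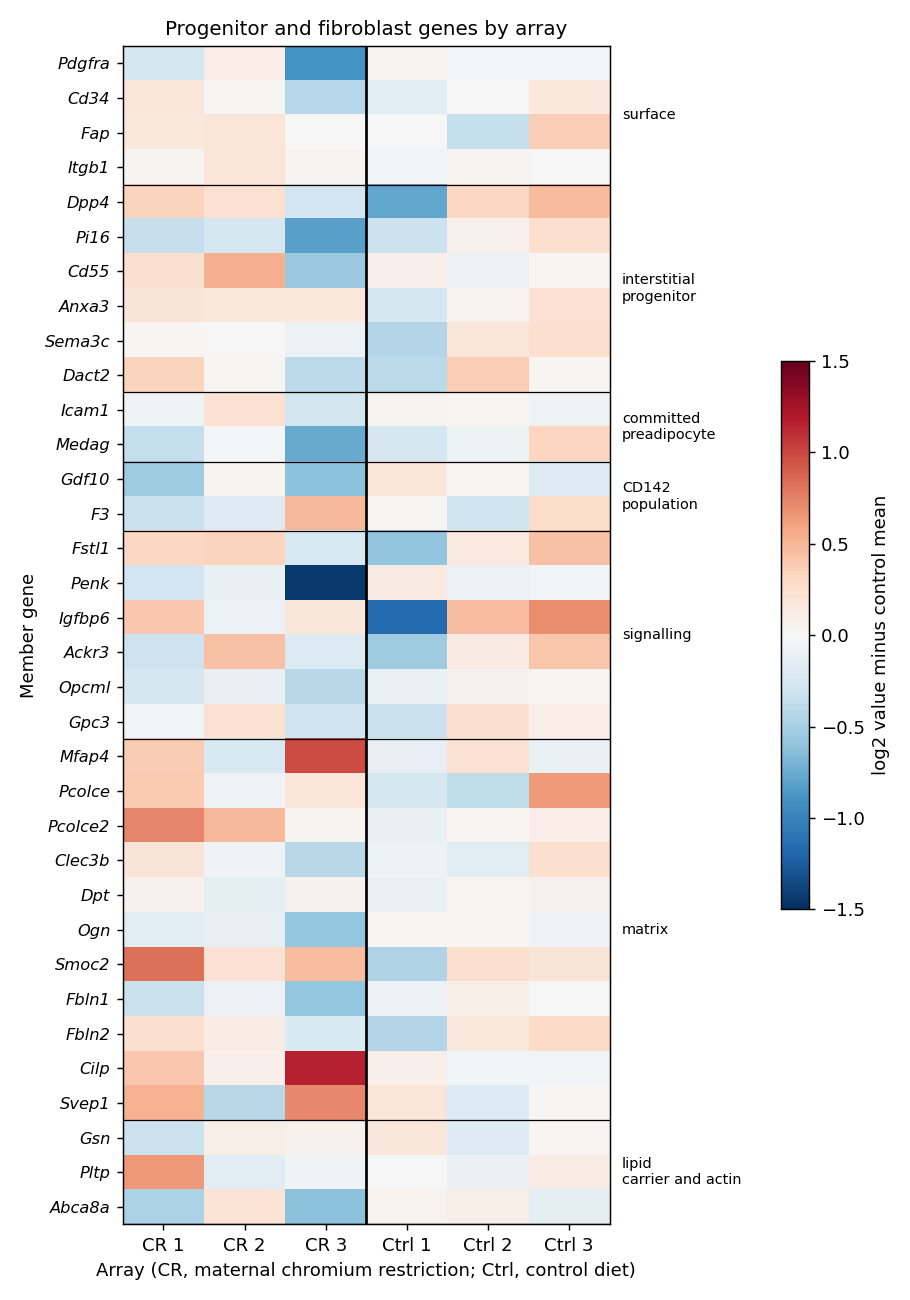
Deviation of each of the 34 members (rows, grouped by role) from its mean over the control arrays, in log2 units, on each array (columns); CR is maternal chromium restriction and Ctrl is control diet. Blue cells gather in chromium restriction replicate 3, where 13 members had their lowest value, and in control replicate 1, where 12 did.

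The interstitial progenitor genes did not separate the groups. Dpp4, the peptidase that names this state, had log2 values of 9.27, 9.16 and 8.64 in the chromium restriction arrays and of 8.15, 9.24 and 9.41 in the controls, each in the order of replicates 1, 2 and 3, as in all such series of values. The low control lay below all 5 other arrays, and apart from it the groups still overlapped. The difference was 0.09 ± 0.36 (log2, SE, n = 3 per group; 95% interval -0.77 to 0.95), with a limma adjusted p of 0.997. Pi16, a secreted protein of the same cells, was at 7.45, 7.55 and 6.99 in the chromium restriction arrays and at 7.48, 7.86 and 8.05 in the controls. Its chromium restriction values lay below the lowest control except in replicate 2, which exceeded control replicate 1. The difference of -0.47 ± 0.20 (SE, n = 3; 95% interval -0.96 to 0.02) had an unadjusted limma p of 0.0567 and an adjusted p of 0.817.

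Cd55, a complement inhibitor on the surface of these progenitors, was at 8.62, 8.90 and 7.81 in the chromium restriction arrays and at 8.44, 8.29 and 8.39 in the controls. The controls lay together, with an SD of 0.08, while the chromium restriction arrays lay on both sides of them, with an SD of 0.57. Anxa3, a calcium-dependent membrane-binding protein, was at 9.41, 9.37 and 9.38 against 8.95, 9.27 and 9.43. The spread had the opposite form there, with an SD of 0.02 in the chromium restriction arrays and 0.25 in the controls. Sema3c, a secreted guidance factor, was at 9.52, 9.48 and 9.39 against 9.04, 9.66 and 9.74, and Dact2, a Wnt and TGF-beta modulator, at 6.59, 6.27 and 5.85 against 5.85, 6.62 and 6.28. Both were low in control replicate 1, Dact2 also in chromium restriction replicate 3, and their differences were -0.02 ± 0.19 and -0.01 ± 0.25 (SE, n = 3). Of 10 further interstitial genes, 7 were higher and 3 lower, 0 passed the test, and their differences ran from -0.27 to 0.19.

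The committed preadipocyte genes overlapped between groups as well. Icam1 was at 7.08, 7.37 and 6.87 in the chromium restriction arrays and at 7.18, 7.17 and 7.08 in the controls. Its controls lay within those bounds, and the difference was -0.04 ± 0.13 (SE, n = 3; 95% interval -0.36 to 0.29). Medag, a gene that promotes adipocyte differentiation, was at 7.44, 7.77 and 7.04 against 7.54, 7.72 and 8.12. Chromium restriction replicates 1 and 3 lay below all controls and replicate 2 lay between them, for a difference of -0.38 ± 0.23 (SE, n = 3; 95% interval -0.93 to 0.17). Of 16 further genes listed for committed preadipocytes 9 were higher and 7 lower, with a median of 0.15, or 0.05 without the 2 rows with extra digits. Mature adipocytes, endothelium or macrophages also make most of them. Pparg was the 1 gene of these 16 past the adjusted p, and its row held extra digits. Zfp423, an upstream regulator of it, lay in another such row, at 0.87 ± 0.10 (SE, n = 3) with a limma adjusted p of 0.053. Next by unadjusted p, in rows without extra digits, Ebf2 was lower, at -0.61 ± 0.24, and Apoe higher, at 0.39 ± 0.18 (SE, n = 3). Both had a limma adjusted p of 0.817.

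**Figure D2:**
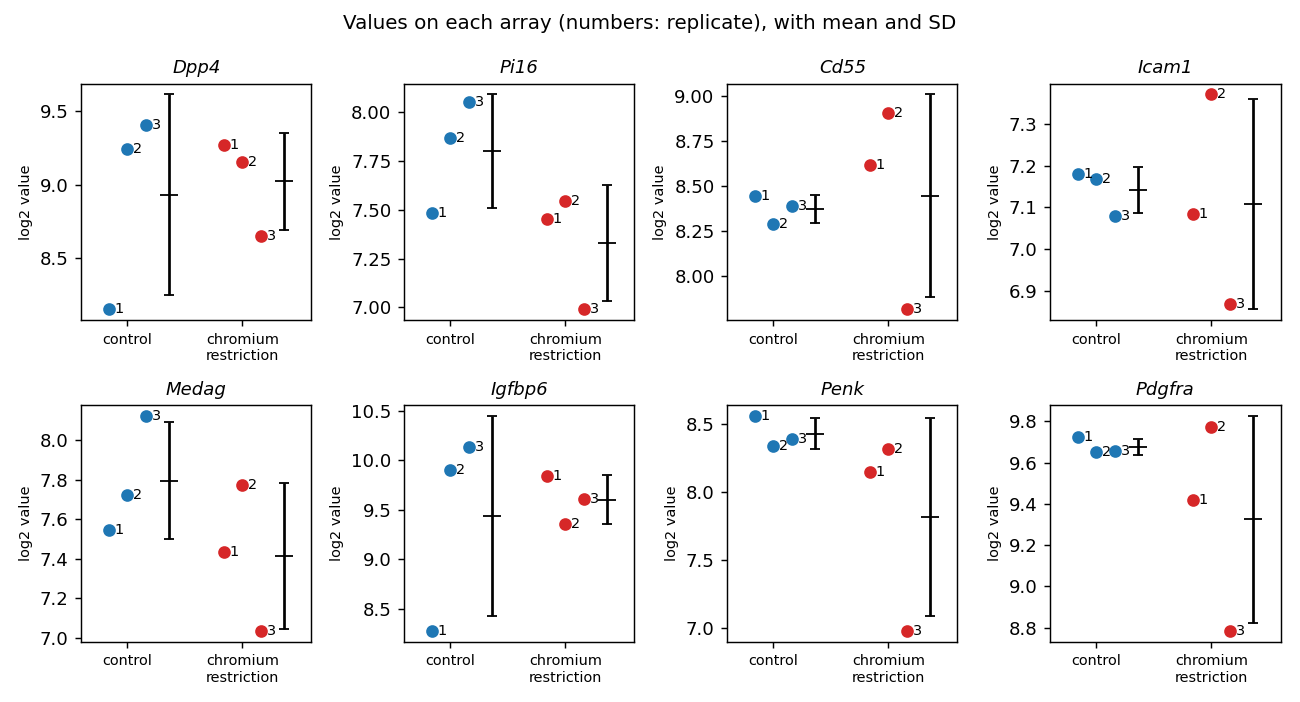
Log2 values of 8 members on each array, with the replicate number beside each point and the mean and SD (n = 3) of the group beside it; blue is control and red is maternal chromium restriction. Control replicate 1 is the low point for Dpp4 (8.15) and Igfbp6 (8.27), and chromium restriction replicate 3 is the low point for the other 6 genes. Axes differ between panels and do not start at 0.

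Taken per array, the interstitial and committed sets moved apart in some arrays of each group. The mean deviation of the 6 interstitial members from their control means came to 0.13, 0.11 and -0.33 in the chromium restriction arrays and to -0.36, 0.15 and 0.21 in the controls. For Icam1 and Medag it was -0.21, 0.10 and -0.52, and -0.11, -0.02 and 0.13. Both sets were thus low in chromium restriction replicate 3, while control replicate 1 was low mostly in the interstitial set. The interstitial minus the committed value was 0.34, 0.011 and 0.19 in the chromium restriction arrays and -0.25, 0.17 and 0.077 in the controls, and the groups overlapped. Without control replicate 1 the mean interstitial difference between the groups moved from -0.028 to -0.21, and without chromium restriction replicate 3 it moved to 0.12. In the same settings, in that order, the mean committed difference of -0.21 moved to -0.26 and to -0.054. When the mean of the liver genes was a covariate, the committed difference was 0.057 and the interstitial difference also turned positive. Without both liver-rich arrays, 1 array against 3, the committed difference was 0.10 and the interstitial difference 0.11. The 1 array left, chromium restriction replicate 2, was rich in intestinal and lymphoid transcripts. Only the liver-rich arrays had high liver means, so the covariate fit is close to the same contrast.

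**Figure D3:**
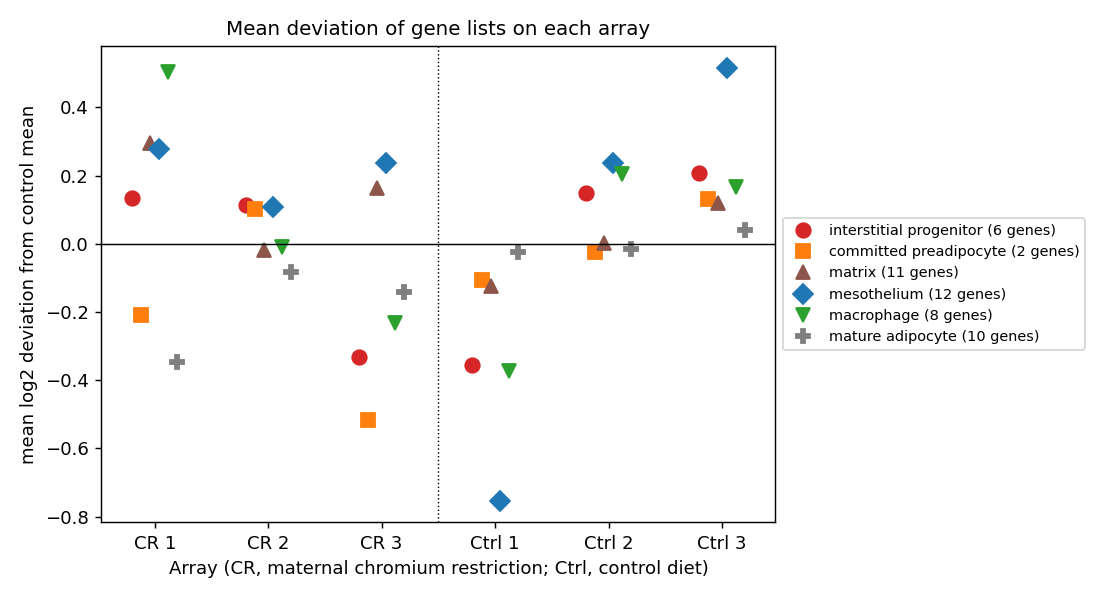
Mean log2 deviation from the control mean on each array for 3 sets of members and 3 lists of other cell types; each symbol is the mean over the genes of a list. In control replicate 1 the interstitial set stands at -0.36 and the mesothelium list at -0.75; in chromium restriction replicate 3 the committed set stands at -0.52 and the mesothelium list at 0.24.

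Most of the low values fell into 2 single arrays, 1 of each group, a pattern picked out after the values were seen. In control replicate 1, 12 members had their lowest value of the 6 arrays, where 15.7% of all genes did: Dpp4, Anxa3, Sema3c, Dact2, Igfbp6, Fstl1, Fbln2, Ackr3, Gpc3, Smoc2, Pcolce2 and Itgb1. In these 12 the array lay 0.057 to 1.74 log2 units below the mean of the other controls. Of those other controls, replicate 3 held the highest value of 11 of the 34 members, where 4152 of all 22180 genes were highest there. Igfbp6, a binding protein for insulin-like growth factors with preference for IGF2, had the widest range of any member, at 8.27 in control replicate 1 against 9.90 and 10.13 in the other controls and 9.84, 9.35 and 9.61 in the chromium restriction arrays. Fstl1, a secreted glycoprotein of the follistatin family, was at 8.74 there against 9.48 and 9.77, and Fbln2, an elastic fibre protein, at 8.60 against 9.20 and 9.32. Ackr3, a scavenger receptor for the chemokine Cxcl12, was at 6.63 against 7.28 and 7.57, and Gpc3, a glypican that binds Hedgehog ligands, at 8.18 against 8.75 and 8.62.

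Markers of mesothelium, the cell sheet that covers visceral fat, were low in the same array as these 12 members, which were picked for that low. In chromium restriction replicate 3 the 2 sets parted. The median log2 difference from the other chromium restriction arrays was -0.34 for the 12 members and -0.024 for the 12 mesothelial genes. All 12 mesothelial genes had their lowest value in control replicate 1, and none of them is a member. Their mean log2 level was 6.53 there, 7.52 and 7.80 in the other controls and 7.39 to 7.56 in the chromium restriction arrays; Upk3b was at 8.03 there against 9.49 to 10.44 elsewhere. The same array had the highest brown fat level (Ucp1 at 10.25 against 4.87 to 7.37 elsewhere) and the lowest macrophage mean (8.89 against 9.03 to 9.76). The part of these markers in the low values of the 12 members was not tested. The low did not extend to all progenitor lists in that array. The mean deviation from the control mean there was 0.10 for 12 further genes of the whole progenitor lineage. It was 0.45 for 6 further genes of the F3 (CD142) population, -0.11 for 10 further interstitial genes and -0.024 for 16 further committed genes. Without control replicate 1 the difference of Dpp4 turned from 0.09 to -0.30, that of Igfbp6 from 0.17 to -0.41 and that of Fstl1 from 0.13 to -0.16.

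In chromium restriction replicate 3, 13 members had their lowest value, where 15.3% of all genes did: Pdgfra, Cd34, Pi16, Cd55, Icam1, Medag, Gdf10, Penk, Opcml, Ogn, Fbln1, Clec3b and Abca8a. The array lay 0.24 to 1.25 log2 units below the mean of the other chromium restriction arrays in these 13. Pdgfra, the receptor tyrosine kinase that defines the lineage, was at 8.78 there against 9.42 and 9.77 in the other chromium restriction arrays and 9.65 to 9.72 in the controls. Penk, the precursor of enkephalin opioid peptides, was at 6.98 against 8.15 and 8.32, with controls at 8.33 to 8.56. Cd34, a sialomucin of progenitors and endothelium, was at 8.95 against 9.56 and 9.40, and the controls ran from 9.22 to 9.54. Another 5 members, of the matrix and of coagulation, chosen after their values were seen, stood at their highest in the same array instead. They were 14.7% of the members, near the 11.8% of all genes that were highest there.

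Those 5 were Cilp, Mfap4, Svep1, F3 and Dpt. Dpt was at 11.75 in this array, in chromium restriction replicate 1 and in control replicate 3 alike. Cilp, a matrix protein that antagonises TGF-beta, was at 7.21 in chromium restriction replicate 3, at 6.47 and 6.14 in the other chromium restriction arrays and at 6.14, 6.02 and 6.02 in the controls. Mfap4, a microfibril-associated protein, was at 6.47 there against 5.26 to 5.88 elsewhere, and Svep1, a large adhesion protein, at 9.75 against 8.62 to 9.55. The array was 1 of 2 rich in liver transcripts. The other, chromium restriction replicate 1, had the higher liver mean and held the lowest value of 2 members, F3 and Gsn, where 25.1% of all genes were lowest there. Mesothelial markers were not low in replicate 3 (mean level 7.52), the mature adipocyte mean was 11.93 against 11.73 to 12.11 elsewhere (10 genes, 2 of them in rows with extra digits), and the macrophage mean was 9.03. Whether liver transcripts had a part in the low values was not tested. Without this array the difference of Pdgfra went from -0.35 to -0.083, that of Penk from -0.61 to -0.20 and that of Cilp from 0.55 to 0.24.

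For 4 members the groups did not overlap, where 9.60% of all genes did not: 3 were lower in the chromium restriction group, against 6.06% of all genes, and 1 higher, against 3.53%. Penk, described above, was lower in 3 of 3 chromium restriction arrays, with a difference of -0.61 ± 0.35 (SE, n = 3) and a limma adjusted p of 0.876. Ogn, a small leucine-rich proteoglycan also named osteoglycin, was at 11.46, 11.51 and 11.05 in the chromium restriction arrays and at 11.67, 11.66 and 11.57 in the controls. Opcml, a cell adhesion molecule anchored by a lipid, was at 5.17, 5.31 and 5.002 against 5.33, 5.48 and 5.46, close to or below the array medians. At the nearest pair the gap between groups was 0.021 log2 units for Opcml, 0.016 for Penk and 0.053 for Ogn. Itgb1, the integrin beta 1 chain, was the 1 member higher in 3 of 3, at 10.63, 10.77 and 10.62 against 10.54, 10.62 and 10.58. Its difference was 0.09 ± 0.07 (SE, n = 3), its range over the 6 arrays was 0.22 and its gap between groups was 0.0041. The count of 4 was 14 without chromium restriction replicate 2, 9 without control replicate 1 and 8 without control replicate 3. Fewer arrays overlap less by construction, and the shares of all genes in these settings are not given here.

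The matrix members divided by direction. Of 11, 7 had a higher mean in the chromium restriction group and 4 a lower one, 0 passed the test, and the median was 0.17. Smoc2, a calcium-binding matrix modulator, was at 8.56, 7.96 and 8.20 against 7.30, 7.999 and 7.93, a difference of 0.50 ± 0.24 (SE, n = 3). It was low in control replicate 1, and without that array the difference was 0.28. Pcolce2, an enhancer of the enzyme that trims procollagen, was at 9.62, 9.37 and 8.92 against 8.77, 8.90 and 8.98, a difference of 0.42 ± 0.18 (SE, n = 3). Its paralog Pcolce was at 7.82, 7.37 and 7.61 against 7.17, 7.05 and 8.07 and overlapped fully. Fbln1, a fibulin of basement membranes and elastic fibres, was at 8.67, 8.91 and 8.42 against 8.91, 9.08 and 8.99, a difference of -0.33 ± 0.14 (SE, n = 3) with an adjusted limma p of 0.817. Fbln2, its relative, differed by 0.04 ± 0.22 (SE, n = 3). Dpt, dermatopontin, had the narrowest range of the members, from 11.54 to 11.75 over the 6 arrays, while Itgb1 had the smallest pooled SD within groups. Clec3b, which encodes the plasminogen-binding protein tetranectin, ran from 7.23 to 7.89, with a difference of -0.09 ± 0.18 (SE, n = 3).

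**Figure D4:**
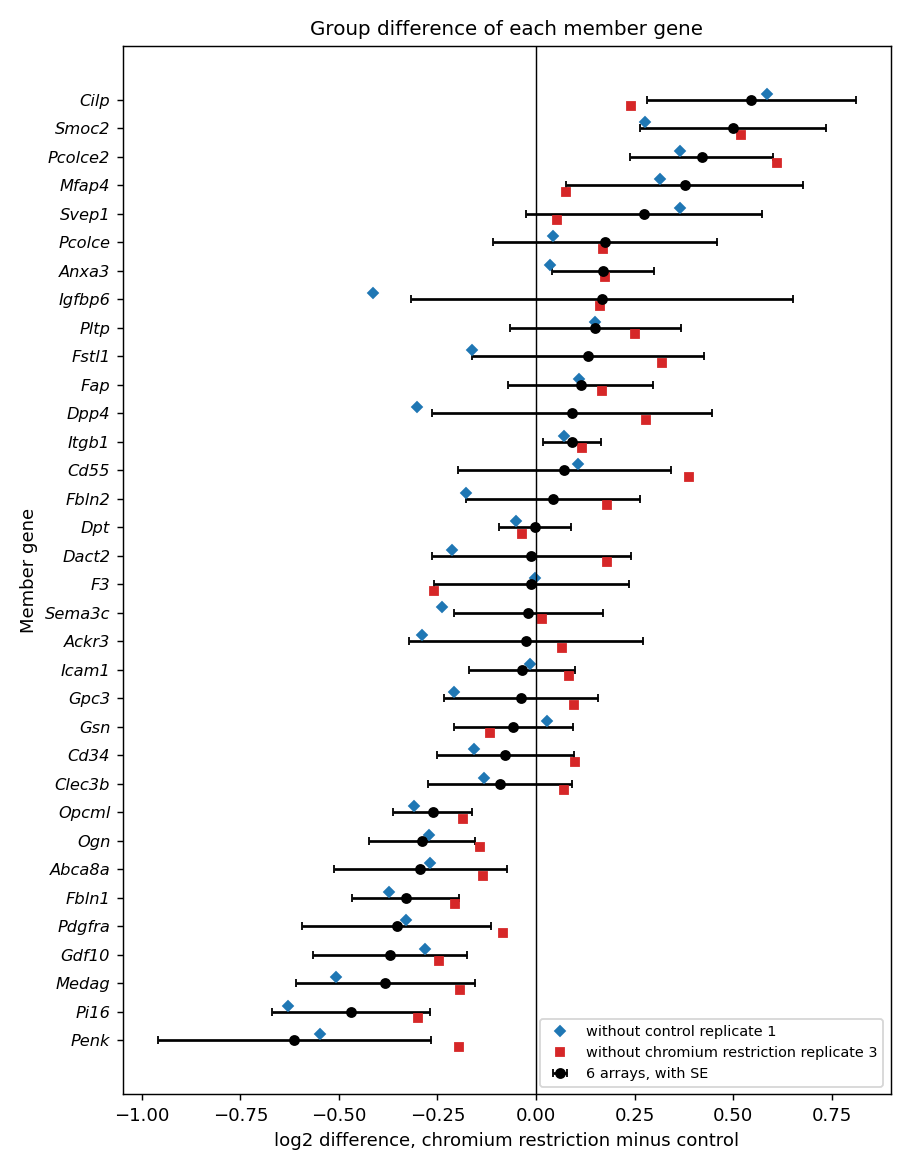
Log2 difference between groups, chromium restriction minus control, for each of the 34 members in order of size; black points carry the standard error over 6 arrays, and coloured points leave out control replicate 1 (blue) or chromium restriction replicate 3 (red). Penk moves from -0.61 to -0.20 without chromium restriction replicate 3, and Igfbp6 from 0.17 to -0.41 without control replicate 1.

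The remaining members also overlapped between groups. F3, which starts coagulation as tissue factor, was at 8.85, 8.99 and 9.67 in the chromium restriction arrays and at 9.20, 8.89 and 9.46 in the controls. Gdf10, a TGF-beta family ligand of the same population, was at 6.79, 7.36 and 6.71 against 7.50, 7.34 and 7.13; chromium restriction replicate 2 lay among the controls and the other 2 below them. Of 6 measured further genes of this population 2 were higher and 4 lower, and 0 passed. Pltp, a phospholipid transfer protein, was at 10.81 in chromium restriction replicate 1 and between 9.998 and 10.26 on the other 5 arrays. Fap, a fibroblast surface protease, ran from 6.60 to 7.33, Gsn, the actin-severing protein gelsolin, from 12.52 to 13.02, and Abca8a, a lipid transporter, from 8.39 to 9.22. Among 12 further genes of the progenitor lineage as a whole 8 were higher and 4 lower, and 0 passed. Cd44, a hyaluronan receptor that leukocytes also make, differed most of these, at 6.26, 6.91 and 6.42 against 5.98, 5.79 and 5.83. The difference was 0.66 ± 0.17 (SE, n = 3, limma adjusted p = 0.679). Cd44 was highest in chromium restriction replicate 2, the array rich in lymphoid transcripts. The other chromium restriction arrays, with lymphoid means of 5.92 and 5.85, the lowest of the 6, also lay above all controls. A part of lymphoid cells was not tested. The groups did not overlap for 2 of the 12, both higher: Cd44 and Thy1 (0.35 ± 0.14, SE, n = 3, limma adjusted p = 0.817). Of all genes 3.53% were higher without overlap.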

How the data were processed

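The deposited table holds 33793 probe sets on 6 one-colour, biotin-labelled arrays of total RNA. Its values were taken as log2 from their range of 3.49 to 14.86; the sources used here do not give how the authors summarised and normalized the deposited log2 values, and no further normalization was applied. By the platform annotation 23521 probe sets have 1 gene symbol, 1814 several and 8458 none. Each of 22180 genes was represented by its brightest single-symbol probe set (mean over 6 arrays), and dim genes were kept. limma 3.58.1 (lmFit, eBayes) in R 4.3.3 gave two-sided tests of chromium restriction minus control, adjusted by Benjamini-Hochberg across the 22180 genes; the script was tested on simulated data. Of the deposited values 183, in 64 probe sets, carry more digits than a single-precision number needs. Every measured member is named, with up to 4 genes of each further progenitor list by smallest p and up to 2 of each list of other cell types by widest range; genes outside that rule are said to be chosen after their values were seen. The members, the lists and their division into roles were chosen with earlier results of these data known. No background level of the arrays is given, and 3 arrays per group limit the precision. Alternatives covered normalization, dim genes, the variance model, array weights, probe set choice, the replicate block, single arrays, rows with extra digits and liver transcripts. Promoter windows were read with Python 3.11.15.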

Additional observations from a re-analysis of the deposited data

How the results depend on the processing

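The count of 0 members past an adjusted p of 0.05 held under all 17 alternatives, and of 576 member differences recomputed under them 550 moved by less than the pooled SD within groups. The other 26 moved further, 12 with the liver genes as covariate and 14 without both liver-rich arrays. Leaving out 1 of 3 arrays cannot move a difference by a full pooled SD, so those settings could not have counted as moved. The variance model and the replicate block left the differences as they were. When 1 array was left out, the sign of the difference changed for 3 to 8 members. Over all genes 43 passed in limma, 24 to 439 when single arrays were left out (439 without chromium restriction replicate 2, and 24 without chromium restriction replicate 3 or any 1 control), 0 with the replicate block, 0 without the rows with extra digits, 6 without both liver-rich arrays and 0 without control 1 and chromium restriction 3 together, an alternative chosen after seeing the data. Members at an unadjusted p under 0.05 numbered 2. They numbered 1 with quantile normalization, 4 after median centring, 1 among genes above the median gene, 5 with eBayes trend and robust and 7 with array weights. The count was 1 with the replicate block, 0 with the liver covariate and 0 to 13 without single arrays (13 without chromium restriction replicate 2). The shares of all genes in these settings are not given here, either for this count or for the next. Members that did not overlap numbered 4, against 4 to 14 without single arrays (14 without chromium restriction replicate 2, 9 without control replicate 1, 8 without control replicate 3), 14 without both liver-rich arrays and 11 without the pair named above; fewer arrays overlap less by construction. The median member difference of -0.012 ran from -0.16 (without control replicate 1) to 0.085 without single arrays. The committed mean of -0.21 was 0.10 without both liver-rich arrays and 0.057 with the liver covariate. The interstitial mean of -0.028 also turned positive in both settings. The cause of these shifts was not tested. Same-numbered arrays did not deviate together (correlations of -0.12, -0.095 and 0.078 across genes for replicates 1, 2 and 3) and 1 of 6 arrays correlated best with its own number, so the numbers were not taken as pairs, and the replicate block left 0 members past the threshold.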
